A study of Mus musculus with 6 samples.

Results

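At day 6 of differentiation, 581 cells carried keratin 8 and 18 transcripts, Cd9, and more Wnt6 than Cited1, of 3196 cells kept in the day 6 libraries and 7096 kept in all 6 libraries of the series. These cells, called the Wnt6 class here, were chosen by their own counts of unique molecular identifiers (UMIs, each standing for 1 captured RNA molecule). A kept cell had at least 1000 genes detected and at most 10% of its UMIs from mitochondrial genes. A member had Krt8 plus Krt18 at 0.2% or more of its UMIs, 5 or more Cd9 UMIs, and Wnt6 UMIs above its Cited1 UMIs. The parental library held 97 members and the Oct1_cKO library 484. The nearest cells in the keratin gate were those with Cited1 above Wnt6, the Cited1 class, with 81 parental and 115 cKO cells, on which no Cd9 limit was set. All 5 genes of the gate were selected on, so their levels, and every contrast of the 2 classes, are descriptions.

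Keratins 8 and 18 pair to form the intermediate filaments of simple, single-layered epithelia and of the first surface layers of the embryo. Wnt6 is a secreted Wnt ligand that embryonic surface ectoderm makes, and Cd9 is a tetraspanin, a membrane organiser abundant on epithelial and pluripotent cells. Stratifying surface ectoderm is known for the transcription factor Trp63 and then for keratins 5 and 14. Wnt ligands bind Frizzled and Lrp receptors, and cells that respond switch on feedback genes such as Axin2, Sp5 and the secreted Wnt inhibitor Notum.

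The libraries came from mouse embryonic stem cells (ESCs) of a parental line and of the Oct1_cKO genotype, in which Pou2f1, the gene for the transcription factor Oct1, is conditionally knocked out. Each genotype was sampled as ESCs, at day 3 and at day 6, with 1 library per group. Plates coated with 0.1% gelatin were used, with Bmp4 in N2B27 medium for 2 days and then 4 days of a DMEM medium holding the Wnt agonist Rspo3 and the BMP receptor inhibitor LDN-193189. Both day 6 groups share this protocol and trypsin harvest, and the labels name neither clones nor separate cultures. With 1 library per genotype no difference between genotypes can be tested, genotype and library cannot be told apart, and all intervals below are 95% intervals for counting error only.

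Total UMIs per library ranged from 41665721 to 85102600, and were 71970898 in the parental and 71281283 in the cKO day 6 library. The median member held 58701 UMIs in the parental and 58859 in the cKO library, against 35677 and 23550 in cells outside the keratin gate. No cell barcode was shared by the day 6 libraries. Pou2f1 was at 30.1 CPM (UMIs of the gene per 1000000 UMIs of the group) in parental and 21.5 in cKO ESCs, and at 28.3 and 12.6 at day 3. In the Wnt6 class it was at 22.6 CPM in the parental and 14.9 in the cKO library, a log2 ratio of -0.60 (-0.86 to -0.33). Where the deletion lies relative to these 5′ counts is not given in the sources used here, so the remaining Pou2f1 counts do not measure its completeness.

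Cells of the Wnt6 class made up a larger part of the cKO culture. Their share was 6.27% of kept cells in the parental library (5.12 to 7.6, Clopper-Pearson) and 29.3% in the cKO library (27.1 to 31.6). The difference was 23.1 percentage points (20.5 to 25.6, Newcombe), or 4.68-fold. The Cited1 class was 5.24% of the parental and 6.97% of the cKO library, which is 1.73 points (0.062 to 3.40) more in the latter. Keratin-gated cells as a whole made up 18.6% of the parental and 53.0% of the cKO library. Among keratin-gated cells alone, the Wnt6 class was 33.8% in the parental and 55.3% in the cKO library, 21.5 points apart (14.96 to 27.7). The same gate found 8 parental and 3 cKO cells among ESCs, and 0 parental and 4 cKO cells at day 3. The 0 of 948 parental day 3 cells allows a share of up to 0.316% by the limit of 3 counts, and the Clopper-Pearson bar in the plot of shares reaches 0.388%.

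**Figure D1:**
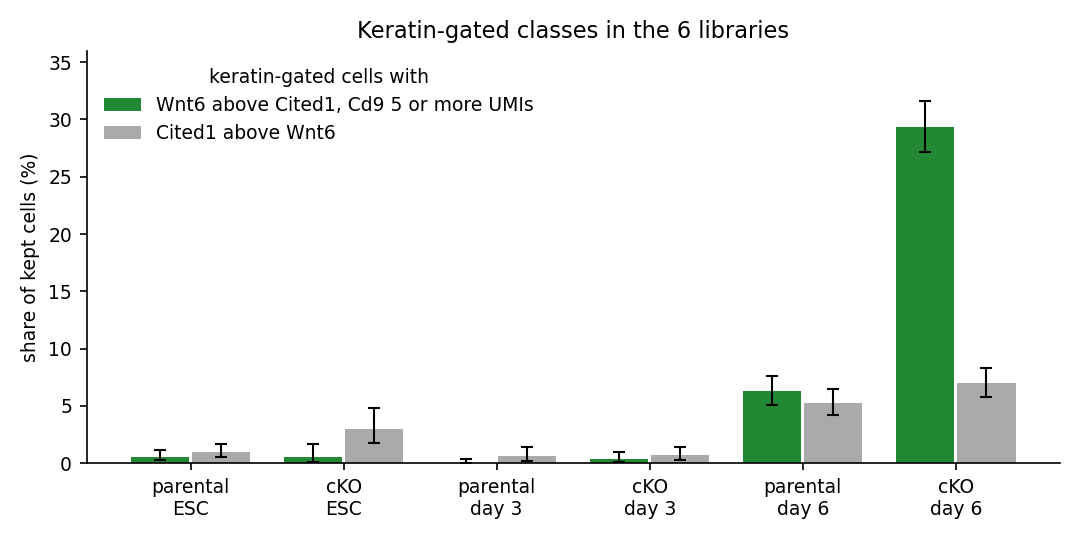
Share of kept cells (%) in the Wnt6 class (green) and the Cited1 class (grey) in each of the 6 libraries, with 95% Clopper-Pearson intervals as bars. The Wnt6 class reached 29.3% in the cKO day 6 library against 6.27% in the parental one, while in each ESC and day 3 library it stayed under 1%.

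The Cd9 limit counts UMIs, so depth enters the gate. Keratin-gated cells outside both classes were shallow, with a median of 4617 UMIs in the parental and 5238 in the cKO library. When every cell was thinned to 10000 UMIs and the Cd9 limit set to 2, the class was 6.13% of 1175 parental cells and 38.7% of 1092 cKO cells. Without barcodes over 2 times the median UMIs of their library, it was 5.01% of parental and 20.4% of cKO cells. Such deep barcodes numbered 34 of the 97 parental and 229 of the 484 cKO members, and no doublet caller was run. Wnt6 led Cited1 by only 1 or 2 UMIs in 17 parental and 45 cKO members. Cells of the Cited1 class within the same margin numbered 36 and 56. Keratin lay between 0.2% and 0.25% of UMIs in 8 parental and 40 cKO members, while 11 and 55 cells met the other rules with keratin between 0.15% and 0.2%. Cd9 stood at 5 to 7 UMIs in 3 and 30 members, and 9 and 54 cells missed it with 2 to 4.

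The levels of the gate genes differed between libraries as well as between classes. Wnt6 stood at 458 CPM in parental and 807 CPM in cKO members, and at 87.9 and 346 CPM in the Cited1 class. Cd9 stood at 993 and 1862 CPM in the Wnt6 class and at 824 and 1878 CPM in the Cited1 class, so its level differed more between libraries than between classes. Cited1, a transcriptional coactivator, was at 114 and 189 CPM in the Wnt6 class. Most members held some: 65 of the 97 parental and 358 of the 484 cKO members had at least 1 Cited1 UMI. Cells of another type also held Wnt6 UMIs. At 10000 UMIs per cell, at least 1 was found in 7.74% of parental and 30.1% of cKO somite-like cells (outside the keratin gate, with at least 3 UMIs of Meox1 and Tcf15). In Wnt6-class cells of the same depth the share was 81.2% and 92.97%. The part of free RNA or doublets in these counts was not tested.

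Members had a simple epithelial profile. Krt7 was at 409 CPM in the parental and 372 in the cKO library, and Krt19 at 882 and 540 CPM. Junction genes were high in both libraries, with the cell adhesion molecule Epcam at 612 and 633 CPM, E-cadherin (Cdh1) at 139 and 137 CPM, and the tight junction claudin Cldn6 at 277 and 261 CPM. The desmosome genes Perp and Dsp were at 264 and 123 CPM in parental and at 400 and 164 CPM in cKO members. Tgm1, which crosslinks the cornified envelope, was at 80.1 and 99.2 CPM. The epithelial transcription factors Klf5 and Grhl2 were at 115 and 161 CPM and at 22.0 and 24.0 CPM.

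Markers of stratified surface ectoderm were at or near 0, which goes against that identity. Krt5 was at 0 in both libraries, Krt14 at 1.29 and 0.177 CPM, Krt15 at 0.143 and 2.45 CPM, and Trp63 at 0.572 and 2.10 CPM. The cornified envelope proteins involucrin (Ivl), at 0 and 0.0296 CPM, and filaggrin (Flg), at 0 and 0.0887 CPM, were also near 0. Tfap2a, an early ectoderm factor, was at 5.30 CPM in parental and 24.5 CPM in cKO members, and Tfap2c at 33.2 and 14.4 CPM. The cells are therefore named here by the gate and not as surface ectoderm.

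Markers of other lineages varied in members. The 12 trophoblast markers summed to 48.8 CPM in parental and 29.7 CPM in cKO members, above the 12.3 and 10.2 CPM outside the gate, with none over 10.7 CPM and Tpbpa and Prl3d1 at 0. The 8 amnion markers summed to 180 and 144 CPM, above the 51.8 and 102 CPM outside the gate. Most of that sum came from the BMP ligand Bmp4 and the BMP pseudoreceptor Bambi, while Gabrp and Isl1 were below 1 CPM. The 8 mesenchyme markers summed to 818 and 266 CPM, below the 1175 and 715 CPM outside it, with Acta2 alone at 713 and 208 CPM in members. The 10 somite markers summed to 14.6 and 14.4 CPM, against 301 and 358 CPM outside the gate. The 10 neural markers summed to 80.0 and 61.8 CPM, against 1677 and 148 CPM outside it. Blood and endothelial markers summed to 2.29 and 0.65 CPM, and 7 of their 8 genes were below 1 CPM in both libraries. The 15 visceral and parietal endoderm markers summed to 639 and 988 CPM, above the 342 and 935 CPM outside the gate. The broadly expressed Apoe alone stood at 611 and 950 CPM, while Afp, Ttr and Hnf4a were at 0 in both libraries. Dab2 was at 19.6 and 25.4 CPM against 10.55 and 23.4 CPM outside, and Sox17 at 0.143 and 5.94 against 2.365 and 11.6 CPM. Hox genes were low: the 15 of paralog groups 5 to 9 summed to 27.6 and 24.7 CPM in members and to 277 and 153 CPM outside the gate.

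Against all cells outside the keratin gate, a comparison added after values were seen, 250 genes (4.31% of 5796 tested) were higher and 142 (2.45%) lower in members by at least 2-fold in both libraries. Here and below a gene was tested where its higher group reached 20 CPM, and called where it differed at least 2-fold. The gate sets these groups apart by their own values, so the contrast is a description. Among the highest were Krt7, given above, and Sfn, an epithelial gene at 462 CPM in parental and 489 CPM in cKO members. Wnt ligand genes other than Wnt6 were in the same group. Wnt4 stood at 136 and 156 CPM in members and 11.2 and 31.5 CPM outside, Wnt7b at 59.96 and 50.3 against 5.41 and 11.6 CPM, and Wnt10a at 43.2 and 63.0 against 0.986 and 13.6 CPM. In the cKO library the cells outside the gate included 165 of 775 that met the Cd9 and Wnt6 rules but fell below the keratin limit, against 32 of 1259 in the parental library.

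**Figure D2:**
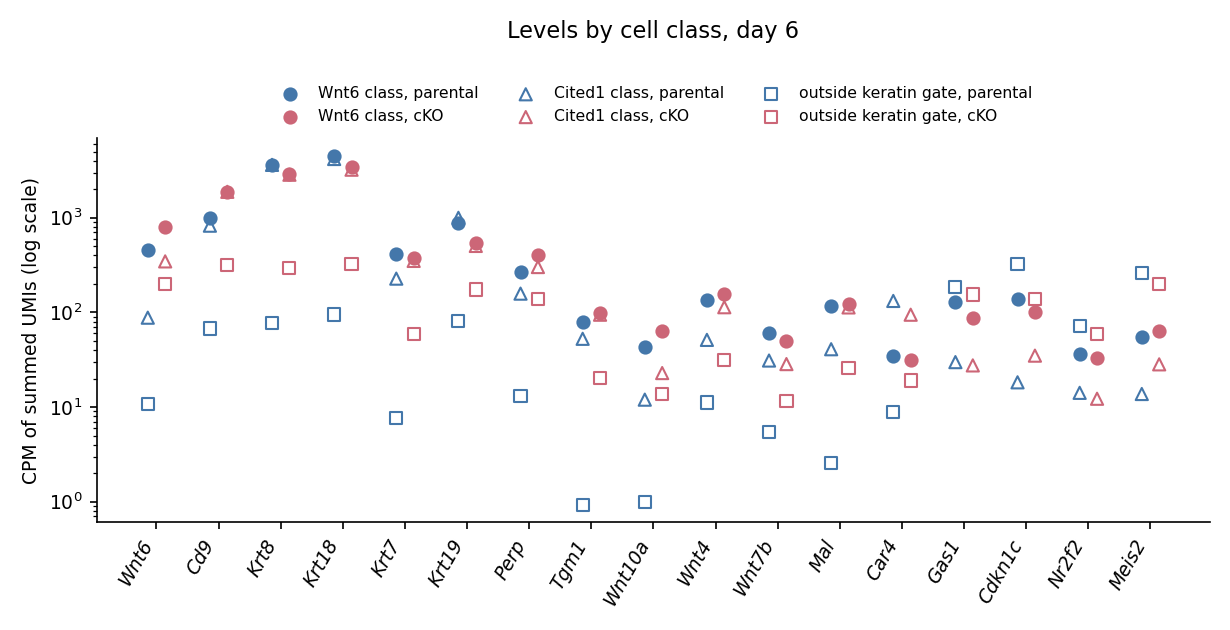
Levels (CPM of summed UMIs, log scale) of gate and named genes at day 6, in the Wnt6 class (filled circles), the Cited1 class (open triangles) and cells outside the keratin gate (open squares), parental in blue and cKO in red. Krt8, Krt18 and Krt19 are at similar levels in both keratin-gated classes, while Krt7 and the desmosome gene Perp are higher in the Wnt6 class. Gas1, Cdkn1c, Nr2f2 and Meis2 are lowest in the Cited1 class and Car4 is highest there.

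The Wnt6 and Cited1 classes were close to each other. Of 5437 genes tested in both libraries, 7 (0.129%) were at least 2-fold higher in the Wnt6 class in both libraries and 1 (0.0184%) was lower. Within single libraries the counts were larger, with 44 genes higher (0.76% of 5786) and 22 lower (0.38%) in the parental library. In the cKO library 20 were higher (0.35% of 5708) and 7 lower (0.123%). The 8 genes called in both libraries were 19.5% of the 41 parental calls and 50% of the 16 cKO calls among genes tested in both, and none was called in opposite directions. No member of the desmosome, tight junction or adherens junction lists passed 2-fold in both libraries, of 7, 10 and 11 tested. The median log2 ratio of those lists lay between 0.05 and 0.24 in the 2 libraries, beside about -0.01 for all tested genes.

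Wnt10a, a ligand of the same family as Wnt6, was the called gene that was higher in the Wnt6 class than in both other groups in each library. It stood at 43.2 CPM in parental members and 11.98 CPM in the parental Cited1 class, a log2 ratio of 1.85 (1.45 to 2.27). In the cKO library it stood at 63.0 and 22.9 CPM, a log2 ratio of 1.46 (1.20 to 1.73). At least 1 UMI was present in 69.1% of parental and 70.0% of cKO members, and in 16.0% and 27.8% of the Cited1 class. At 10000 UMIs per cell those shares were 28.1% and 37.1% in members, 8.06% and 15.6% in the Cited1 class, and 0.645% and 2.04% in somite-like cells. Its 2-fold difference held in every alternative run except a limit of 50 CPM, which its level does not reach in the parental library. The 5 highest cells held 38.1% of the Wnt10a UMIs of parental and 9.30% of those of cKO members. In the Cited1 class they held 85.2% of the 61 parental UMIs and 44.9% of the 127 cKO UMIs. In GENCODE M21 (build GRCm38), Wnt6 lies at chr1:74771892-74785322 and Wnt10a at chr1:74791516-74804179, both protein-coding on the plus strand. Wnt10a begins 6193 bases past the end of Wnt6, a distance noted after its level was seen.

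The promoter of Wnt6 is shown because the class turns on this gene. The window is RefSeq's on build GRCm38.p6, chr1:74771642-74771941, plus strand, from 250 bases before the start site to 50 after. Capitals mark matches on either strand to the motifs GGGCGG (SP/KLF factors), GCCNNNGGC (AP-2 factors), CTTTGAA or CTTTGAT (TCF/LEF factors) and AACCNGTT (GRHL factors).
Wnt6: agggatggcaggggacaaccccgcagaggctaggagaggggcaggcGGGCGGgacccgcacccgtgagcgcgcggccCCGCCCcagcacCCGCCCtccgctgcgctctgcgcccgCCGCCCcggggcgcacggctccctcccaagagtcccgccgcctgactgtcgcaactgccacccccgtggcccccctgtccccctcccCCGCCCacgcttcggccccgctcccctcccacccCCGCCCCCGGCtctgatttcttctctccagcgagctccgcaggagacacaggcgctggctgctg
It holds 6 SP/KLF matches and 1 AP-2 match, which starts 12 bases before the start site and overlaps the last SP/KLF match. An SP/KLF match is present in 35.7% of the 32851 promoter windows in the table, an AP-2 match in 16.6%, a TCF/LEF match in 8.65% and a GRHL match in 2.09%. A match describes letters only.

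The other 6 genes higher in the Wnt6 class were growth and patterning genes whose levels outside the keratin gate were mostly higher still. Gas1, a cell surface protein that binds Hedgehog ligands, stood at 128 CPM in parental members and 29.8 in the Cited1 class, and at 88.1 and 27.5 CPM in the cKO library. Cdkn1c, the cell cycle inhibitor p57, stood at 140 against 18.3 CPM in the parental and 100.1 against 34.9 CPM in the cKO library. Cyclin D2 (Ccnd2) stood at 46.9 against 11.2 CPM and at 34.1 against 11.7 CPM. The nuclear receptor Nr2f2 stood at 36.8 against 14.1 CPM and at 32.8 against 12.2 CPM, and the homeodomain factor Meis2 at 55.0 against 13.7 CPM and at 63.8 against 28.3 CPM. Zfp703, a zinc finger repressor, was nearest to the limit, at 38.3 against 18.6 CPM and at 28.9 against 11.7 CPM. Outside the gate Gas1 reached 184 and 155 CPM, Cdkn1c 322 and 137 CPM, Ccnd2 378 and 95.1 CPM, and Meis2 260 and 198 CPM.

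Several of these levels rested on few cells. The 5 highest cells held 55.8% of the Cdkn1c UMIs of parental members and 36.8% of those of cKO members, and 93.5% and 51.0% in the Cited1 class. For Gas1 the 5 highest cells held 35.8% and 12.5% in members and 84.2% and 54.2% in the Cited1 class. Cells with somite markers, neural markers or T and Shh numbered 1 or 2 of each kind among parental members and 2 to 6 among cKO members, and their part in these levels was not tested. Leaving out the top 5% of cells for each gene, an alternative added after values were seen, removed the calls of Cdkn1c, Ccnd2, Zfp703 and Car4 and kept those of Gas1, Wnt10a, Nr2f2 and Meis2. Without deep barcodes Gas1, Meis2 and Zfp703 fell under 2-fold in at least 1 library, and after thinning Cdkn1c, Nr2f2, Meis2 and Zfp703 did. Car4, a membrane-bound carbonic anhydrase, was the gene that was lower in the Wnt6 class in both libraries. It stood at 34.6 CPM against 132 CPM in the parental library, a log2 ratio of -1.93 (-2.15 to -1.72). In the cKO library it stood at 31.2 against 94.5 CPM, a log2 ratio of -1.60 (-1.75 to -1.44).

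**Figure D3:**
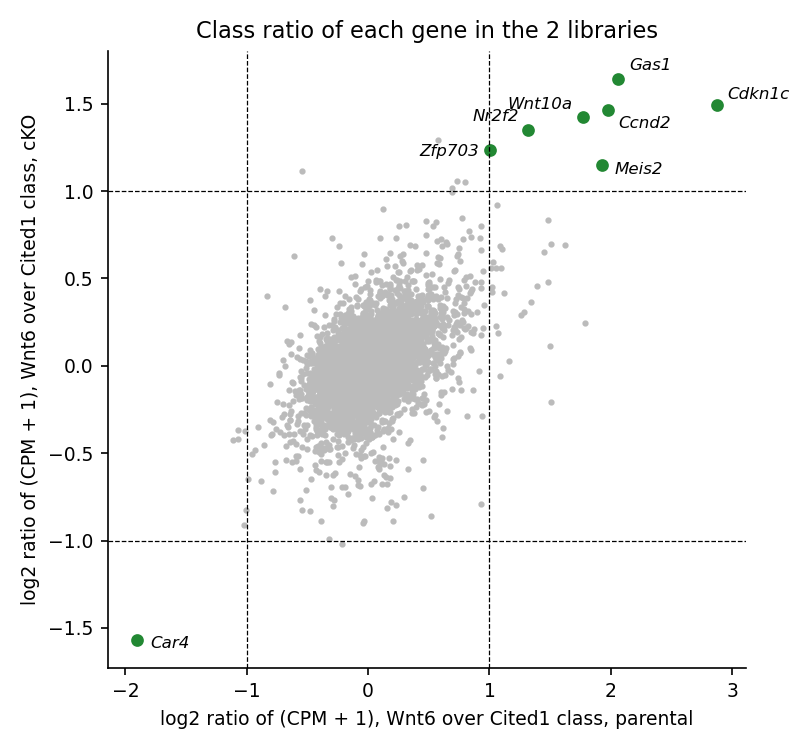
Log2 ratio of CPM + 1 between the Wnt6 and Cited1 classes for the 5437 genes tested in both, parental library on the x axis and cKO library on the y axis. Dashed lines mark 2-fold, and the 8 genes past it in both libraries are green: 7 at the upper right and Car4 at the lower left.

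Wnt4 and Wnt7b leaned the same way as Wnt10a without passing 2-fold in both libraries. Wnt4 stood at 136 against 51.2 CPM in the parental and 156 against 113 CPM in the cKO library, log2 ratios of 1.41 and 0.46. Wnt7b stood at 59.96 against 31.0 and at 50.3 against 28.4 CPM, log2 ratios of 0.95 and 0.82. Of the 18 other Wnt ligand genes listed, these 3 were the ones tested. Wls, which carries Wnt proteins to the cell surface, was at 173 against 90.5 CPM and 248 against 182 CPM. Mal, a membrane raft protein of epithelia, was at 117 against 40.8 CPM in the parental library but at 122 against 113 CPM in the cKO library. Whether the class ratio differed between the libraries was not tested, since each library gives 1 value.

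Members differed among themselves by their Cited1 level, which is part of the rule. The split was by Cited1 as a share of Wnt6 plus Cited1 UMIs. Parental members held 32 cells with no Cited1 UMI, 34 with a share below 0.2 and 31 at or above it. The cKO members numbered 126, 205 and 153 in the same order. Cells with none were shallower, with median UMIs of 44661 in the parental and 37088 in the cKO library, against 66527 to 68168 in the other subgroups. Wnt6 was lowest in the cells without Cited1, at 340 CPM in the parental and 478 CPM in the cKO library, and highest in the middle group, at 552 and 933 CPM. Because Wnt6 UMIs enter the share, a high Wnt6 count moves a cell with Cited1 into the middle group. The order of Wnt6 levels is thus partly set by the split. Cdkn1c was highest in the cells without Cited1, at 358 and 226 CPM, and lay between 65.2 and 88.9 CPM in the other 4 subgroups. Ccnd2 was lowest in the cells with most Cited1, at 12.9 and 17.1 CPM, against 39.1 to 73.4 CPM elsewhere. Topoisomerase Top2a, which is high in dividing cells, was at 179 and 88.5 CPM without Cited1, and between 342 and 345 CPM in the other parental and 150 and 167 CPM in the other cKO subgroups. Wnt10a and Wnt4 stayed within a 2-fold range in each library.

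**Figure D4:**
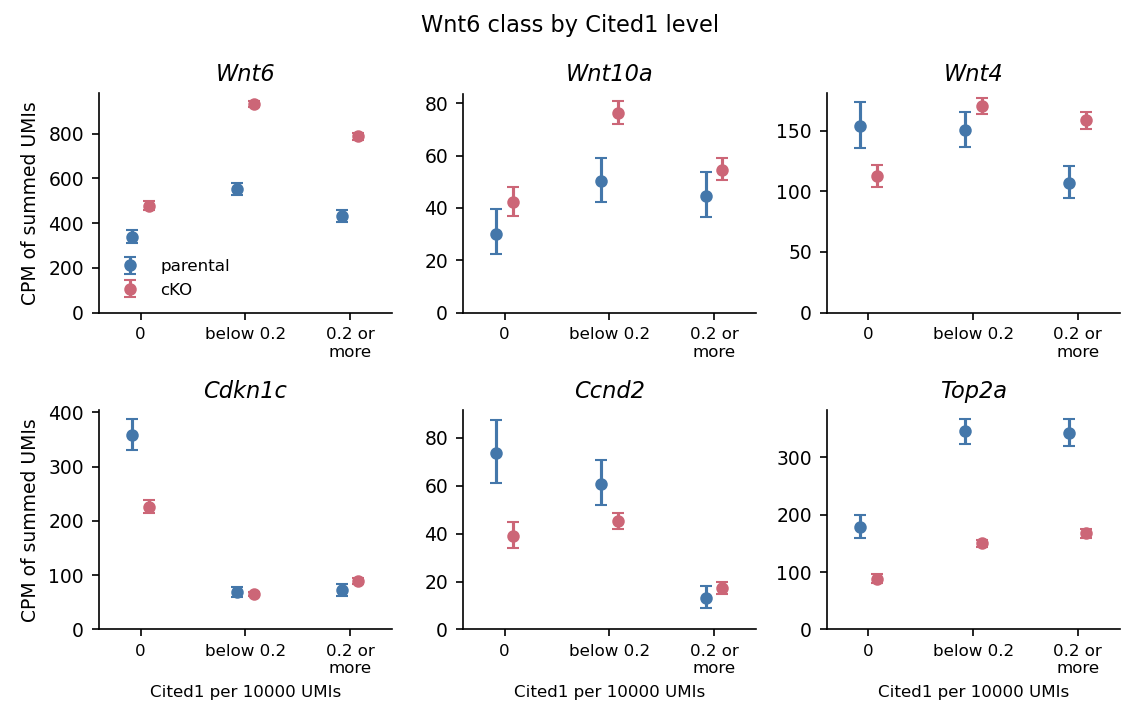
CPM of 6 genes in Wnt6-class cells split by Cited1 as a share of Wnt6 plus Cited1 UMIs (x axis). The axis label of Cited1 per 10000 UMIs does not name this measure. Parental is in blue and cKO in red, with exact Poisson 95% intervals as bars. Wnt6 enters the split. Cdkn1c is highest, and Top2a lowest, in the cells without a Cited1 UMI in both libraries.

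Between genotypes, 46 genes were at least 2-fold higher (0.791% of 5814 tested) and 47 lower (0.808%) in cKO than in parental members. In the Cited1 class of the same libraries 78 were higher (1.33% of 5846) and 82 lower (1.4%). Among the 5603 genes tested in both classes, 52 were called in the same direction in both, which is 65.8% of the 79 Wnt6-class calls and 40% of the 130 Cited1-class calls. None was called in opposite directions. The 2 classes come from the same 2 libraries, so this overlap is no replicate. The median log2 ratio of all tested genes was 0.03 in each class. Chromosome 11 stood below it as a whole, with a median of -0.19 over 497 genes and 13 of the 47 lower calls in the Wnt6 class. In the Cited1 class its median was -0.40, with 32 of the 82 lower calls, and outside the gate -0.25. Chromosome 16 had medians of -0.14 and -0.33 in the Wnt6 and Cited1 classes. Genes described below that lie on chromosome 11 include Hist3h2ba, Top2a, Aurkb, Pimreg, Spag5 and Col1a1, all lower in cKO members. Notum and Axin2, higher in them, lie there too. The part of the chromosome 11 shift in the levels of these genes was not tested.

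A few Wnt feedback genes were higher in cKO members. Of 15 Wnt target and feedback genes listed, 4 were tested and 3 were at least 2-fold higher, where 0.791% of all tested genes were. The 3 reached the 20 CPM limit in the cKO library only, so they were tested because they were high there. Their count is a description and no support for a wider Wnt change. Sp5, a transcription factor induced by Wnt signalling, was at 17.9 CPM in parental and 51.6 CPM in cKO members, a log2 ratio of 1.53 (1.27 to 1.80). Notum, a secreted enzyme that inactivates Wnt ligands, was at 5.58 and 22.0 CPM, a log2 ratio of 1.98 (1.52 to 2.48). Axin2, a component of the complex that degrades beta-catenin, was at 9.45 and 21.4 CPM, a log2 ratio of 1.18 (0.81 to 1.56). The fraction of members with a UMI also differed, at 19.6% and 37.2% for Sp5, 16.5% and 38.8% for Notum, and 22.7% and 52.9% for Axin2. The 5 highest cells held 73.6% of the parental Sp5 UMIs and 66.7% of the parental Notum UMIs, against 25.7% and 13.8% in cKO members. Kremen1, the other gene tested, was at 22.0 and 18.7 CPM. Below the level limit, Tcf7 was at 12.6 and 10.2 CPM, the Wnt antagonist Dkk1 at 10.9 and 9.52 CPM, and Znrf3 at 12.02 and 17.6 CPM. The call of Sp5 held in every alternative run. Axin2 and Notum kept their direction and each lost 2-fold or the level limit in 4, including without deep barcodes and without the top 5% of cells.

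In the Cited1 class the same 3 genes were also above the parental level in the cKO library, at 14.9 against 2.55 CPM for Notum and 21.1 against 9.42 CPM for Axin2. Sp5 did not reach 2-fold there, at 30.1 against 19.8 CPM. Outside the keratin gate Sp5 was at 10.9 CPM in the parental and 64.4 CPM in the cKO library, Notum at 1.15 and 12.5 CPM, and Axin2 at 10.1 and 17.8 CPM. At earlier stages they leaned the other way. In ESCs Sp5 was at 58.7 CPM in parental and 44.5 CPM in cKO cells, Notum at 13.4 and 10.3 CPM, and Axin2 at 32.9 and 27.2 CPM. At day 3 Sp5 was at 43.3 and 35.0 CPM, Notum at 1.11 and 0.82 CPM, and Axin2 at 17.8 and 15.05 CPM.

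The promoters of Sp5 and Axin2 are shown because these genes were higher together. They are RefSeq windows of the same kind on GRCm38.p6, Sp5 at chr2:70474673-70474972 and Axin2 at chr11:108920099-108920398, both on the plus strand. Capitals mark the same motifs as above.
Sp5: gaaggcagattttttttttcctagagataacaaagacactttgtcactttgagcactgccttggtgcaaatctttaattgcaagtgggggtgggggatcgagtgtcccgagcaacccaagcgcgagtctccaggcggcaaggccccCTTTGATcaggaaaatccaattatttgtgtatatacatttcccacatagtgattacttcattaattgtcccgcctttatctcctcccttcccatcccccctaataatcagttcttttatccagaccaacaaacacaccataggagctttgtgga
Axin2: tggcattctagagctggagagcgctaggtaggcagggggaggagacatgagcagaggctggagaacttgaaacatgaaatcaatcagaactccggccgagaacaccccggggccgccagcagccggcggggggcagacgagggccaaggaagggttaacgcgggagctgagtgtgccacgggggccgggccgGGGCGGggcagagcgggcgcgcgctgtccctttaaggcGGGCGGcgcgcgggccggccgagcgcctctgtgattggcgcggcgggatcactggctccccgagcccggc
Sp5 holds 1 TCF/LEF match, 104 bases before the start site. Axin2 holds 2 SP/KLF matches, 58 and 20 bases before it, and no TCF/LEF match in this window.

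Other genes higher in cKO members included transcription factors and stress genes. Tfap2a, an AP-2 factor, was at 5.30 CPM in parental and 24.5 CPM in cKO members, a log2 ratio of 2.21 (1.73 to 2.72), and its share of cells was 19.6% and 44.4%. It lost its call without deep barcodes, after thinning and without its top 5% of cells, with its direction kept. In the Cited1 class it was at 0.393 and 20.2 CPM. Its relative Tfap2c ran the other way, at 33.2 and 14.4 CPM, a log2 ratio of -1.21 (-1.43 to -0.97). Nupr1 and Ddit3, which are induced by cell stress, were at 1.86 and 36.01 CPM and at 11.2 and 42.8 CPM. The 5 highest cells held 53.4% of the cKO Nupr1 UMIs. Gnai1, a G protein subunit, was at 24.3 and 89.4 CPM and was found in 55.7% and 82.4% of cells. Trichohyalin (Tchh), a structural protein of the hair follicle, was at 34.9 and 110 CPM and in 67.0% and 80.2% of cells. Dcn, Rasgrp2, Sh3gl3 and the tetraspanin Tspan15 reached between 20.5 and 47.1 CPM in cKO members from 5.01 to 13.5 CPM in parental members. Dppa5a, a gene of pluripotent cells, was at 7.16 and 29.7 CPM, but 5 cells held 97.5% of the cKO UMIs and its direction turned without barcodes over 2 times the median, to a log2 ratio of -1.96.

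**Figure D5:**
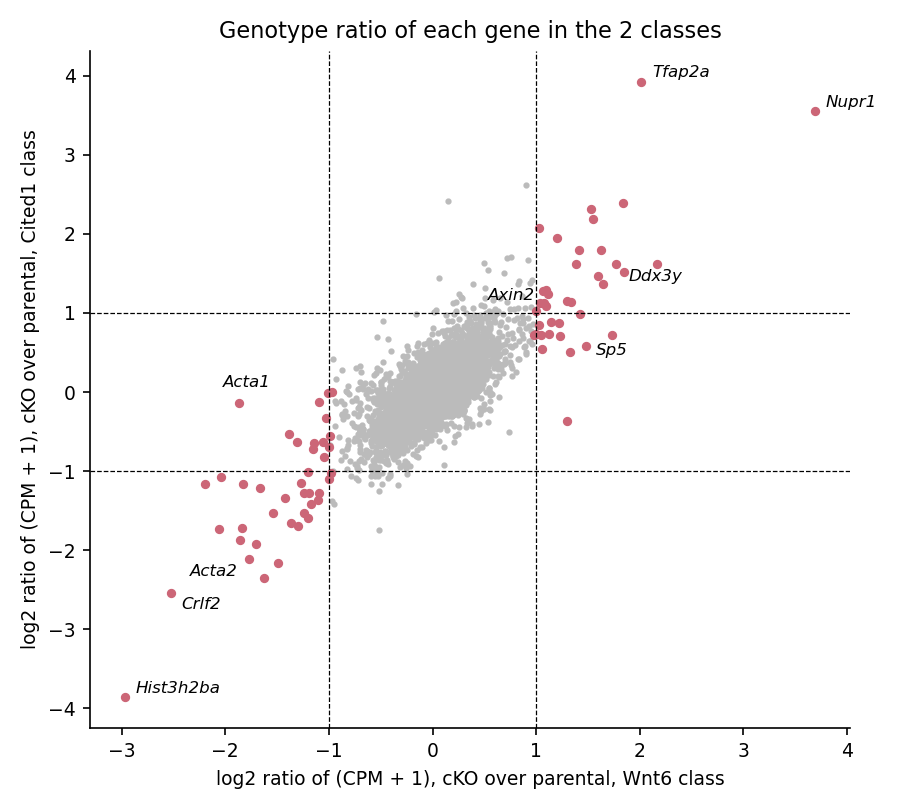
Log2 ratio of CPM + 1 between cKO and parental cells for the 5603 genes tested in both classes, Wnt6 class on the x axis and Cited1 class on the y axis, with the 79 genes past 2-fold in the Wnt6 class in red and 2-fold lines dashed. Axin2, Tfap2a and Nupr1 lie past 2-fold on the higher side in both classes, and Crlf2 and Hist3h2ba on the lower side in both.

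Smooth and striated muscle genes were 5 of the 12 named genes of the lower group, and a few cells carried them. Acta2, smooth muscle actin, was at 713 CPM in parental and 208 CPM in cKO members. Acta1 was at 597 and 164 CPM, Actc1 at 101 and 1.39 CPM, Cnn1 at 83.9 and 19.6 CPM, and Myl9 at 49.1 and 9.90 CPM. In parental members the 5 highest cells held 84.3% of the Acta2 UMIs, 86.9% of Acta1, 99.6% of Actc1 and 79.0% of both Cnn1 and Myl9. Cells with 0.5% or more of their UMIs from these 5 genes numbered 5 of 97 parental and 5 of 484 cKO members, with median UMIs of 165200 and 164280. Leaving them out, an alternative added after values were seen, kept 94 calls in all, 80 of them shared with the 93. It removed the calls of Acta1, Actc1 and Myl9 and kept those of Acta2 and Cnn1. The direction turned for Actc1 with keratin at 0.4% (log2 ratio 0.27) or Cd9 at 0.02% of UMIs (0.41), and for Acta1 without deep barcodes (0.19).

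Other genes in the lower group were found in many parental members. Hist3h2ba, a histone gene, was at 31.3 CPM in parental and 3.13 CPM in cKO members, a log2 ratio of -3.32 (-3.67 to -2.98), and in 58.8% and 11.6% of cells. Crlf2, a cytokine receptor subunit, was at 40.1 and 6.15 CPM, a log2 ratio of -2.70 (-2.97 to -2.44), and in 80.4% and 25% of cells. Pcbd1, a pterin enzyme, was at 34.1 and 8.66 CPM and in 79.4% and 35.3% of cells. The tubulin gene Tubb2a was at 58.2 and 15.7 CPM and in 80.4% and 48.3% of cells. Pkdcc, a secreted kinase, was at 41.5 and 9.19 CPM. The interferon-response genes Isg15 and Psmb8 were at 90.3 and 27.0 CPM and at 32.8 and 8.46 CPM, with 61.3% and 60.7% of the parental UMIs in 5 cells. Both lost their calls without deep barcodes, at log2 ratios of -0.56 and -0.36. Pkdcc was also concentrated, with 53.8% in 5 cells.

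The genotype calls were then set beside cells the gate did not select. Outside the keratin gate at day 6, 214 genes were at least 2-fold higher (3.49% of 6135) and 173 lower (2.82%) in cKO cells. Of the 46 genes higher in cKO members 29 were tested there and 18 called higher, and of the 47 lower 36 were tested and 20 called lower and 2 higher, Isg15 and Psmb8. In ESCs 45 genes were higher (0.845% of 5323) and 70 lower (1.32%), and at day 3, 12 were higher (0.234% of 5132) and 14 lower (0.273%). Of the 46 higher genes 24 were tested in ESCs and 24 at day 3, and 4 were called higher at each stage. Of the 47 lower genes 16 were tested in ESCs, where 5 were called lower. At day 3, 20 were tested and 0 called, while 18 of the 20 had a ratio below 0. Beside 3 Y-linked genes, the shared calls were Fam43a (higher) and Crlf2, Acta2, Myl9, Emp3 and Col1a1 (lower) in ESCs, and Gstt2 (higher) at day 3. Cpe and Mt2 in ESCs and Lpl and Mt2 at day 3 were called lower there and higher in members. These genes are named by the overlap, seen after their values. The ESC and day 3 libraries were compared whole, after values were seen.

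Only 3 genes were called in the same direction in members, outside the gate, in ESCs and at day 3, and all 3 lie on the Y chromosome. Ddx3y, an RNA helicase, was at 29.8 CPM in parental and 104 CPM in cKO members, 47.9 and 125 CPM in ESCs, and 26.7 and 76.7 CPM at day 3. Eif2s3y, a translation initiation factor subunit, was at 55.2 and 150 CPM in members, 33.3 and 66.8 CPM in ESCs, and 28.3 and 67.5 CPM at day 3. Uty, a histone demethylase relative, was at 9.16 and 29.7 CPM in members. Kdm5d, another Y-linked demethylase, was too low to be tested and ran the other way, at 2.00 and 0.769 CPM in members and 1.76 and 0.180 CPM in ESCs. Crlf2 stood at 42.9 CPM in parental and 0.616 CPM in cKO ESCs and at 16.3 and 1.09 CPM at day 3, where it missed the 20 CPM limit.

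Of 14 BMP ligand and response genes 6 were tested and 0 called, with Bmp4 at 114 CPM in parental and 63.7 CPM in cKO members and its targets Id1 at 134 and 151 CPM and Id2 at 213 and 212 CPM. Of 19 cell cycle genes all were tested and 1 was lower, against 0.808% of all tested genes. It was Top2a, at 303 and 146 CPM, a log2 ratio of -1.05 (-1.13 to -0.98), and it fell under 2-fold in 4 alternatives, thinning among them. The mitotic genes of the list were below the parental level without reaching 2-fold, with Mki67 at 98.3 and 59.4 CPM, Cdk1 at 355 and 212 CPM, Ccnb1 at 188 and 105 CPM, Ccnb2 at 134 and 69.8 CPM, and Birc5 at 394 and 243 CPM. The DNA replication genes Mcm6 and Pcna were at 76.6 and 75.9 CPM and at 63.3 and 64.7 CPM. Outside the list, the mitotic genes Cenpf, Aurkb, Pimreg and Spag5 were among the 47 lower calls, named after their values were seen. Top2a, Aurkb, Pimreg and Spag5 lie on chromosome 11, which had a median log2 ratio of -0.19 in members. The part of that shift in the levels of these mitotic genes was not tested. The list's median was -0.14, beside 0.03 for all tested genes. Top2a stood at 379 and 214 CPM in the Cited1 class and at 427 and 209 CPM outside the gate. Of 16 imprinted genes listed, 8 were tested, 2 were called higher and 0 lower, where 0.791% of all tested genes were higher. Their median log2 ratio was 0.13. Phlda2, a placental growth restrictor, was called at 11.7 and 36.4 CPM. It reached 20 CPM in the cKO library only, and 5 cells held 58.6% of its cKO UMIs. Mest was the other, at 74.6 and 154 CPM. Without reaching 2-fold, Meg3 (883 and 592 CPM), H19 (379 and 231) and Cdkn1c (140 and 100.1) ran lower. Peg3 (638 and 834 CPM) and Peg10 (214 and 252.5) ran higher, and Snrpn was at 182 and 184 CPM. None of the 7 desmosome, 10 tight junction or 11 adherens junction genes tested passed 2-fold between genotypes, and their median log2 ratios were 0.27, 0.08 and 0.07. The 11 glycolysis genes tested had a median of -0.45, with lactate dehydrogenase Ldha at 1342 and 800 CPM, and 0 of them passed 2-fold.

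Over the 8 summed values of 4 cell classes in 2 libraries, the genes whose level followed Wnt6 most closely were broadly expressed ones, with Pearson correlations of log2 CPM + 1 from 0.966 to 0.985 among the first 10. They were led by Sec62 and Lamp1, and included the basement membrane protein Npnt at 26.9 CPM in parental and 46.0 CPM in cKO members. These 8 values share 2 libraries, and the correlation is a description.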

How the data were processed

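Single-cell RNA was counted with a 10x Genomics 5′ kit, per the labels. The deposited counts are UMI counts of 31053 genes per barcode, made by the authors with Cell Ranger on mm10, per the submitters' processing notes; the file headers give software version 3.1.0. Of 2561 parental and 2530 cKO day 6 barcodes, 1546 and 1650 were kept. UMIs were summed per class and library (Python 3.11.15, numpy, scipy), scaled to CPM and compared as log2 ratios with exact conditional binomial intervals. A gene was called at 2-fold with 20 CPM in the higher group; class calls had to hold in both libraries. Gate genes and mitochondrial genes were not counted. Named genes were the 12 highest and lowest calls seen in 5% of cells, ranked with a prior of 1 CPM, plus listed genes. No test was run: each group is 1 library, and the gate chose the classes on these values. Members and lists were chosen with earlier results of these data known. Gene positions came from GENCODE M21, which matched 31011 gene IDs, and promoters from RefSeq. Ratios were checked on simulated counts. TMM (edgeR 4.0.16) and size factors (DESeq2 1.42.0) were alternatives. No doublet caller was run. The comparisons with cells outside the keratin gate, ESCs and day 3, the gene neighbours, and the alternatives without the top 5% of cells or without contractile-high cells were added after values were seen. The result for 1 gene is not reported here.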

Additional observations from a re-analysis of the deposited data

How the results depend on the processing

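The share difference between cKO and parental libraries (23.1 points) kept its direction in all 9 alternatives that change the cells and in 1 added after the data were seen. It was 28.0 points when cells needed 2000 genes and no more than 5% mitochondrial reads, 28.3 and 13.6 with keratin limits of 0.1% and 0.4%, 26.3 with Cd9 at 0.02% of UMIs, 32.6 after thinning to 10000 UMIs and 15.4 without barcodes over 2 times the median UMIs. The 8 class calls became 14 with a margin of 3 UMIs between Wnt6 and Cited1, 26 after thinning, 34 without deep barcodes, 28 with equal weight per cell (21 higher and 7 lower, against 7 and 1), and 35, 4 and 1068 with limits of 5 CPM, 50 CPM and none. Of the 8 genes, 4 were among the 26, 5 among the 34 and 6 among the 28. The 93 genotype calls became 198 after thinning (58 of the 93 among them), 281, 33 and 4965 with those limits, and 58 outside chromosomes 1, 6, 8 and 11. Those chromosomes held 325, 263, 335 and 497 of the 5814 genes tested. The CPM limits change the number of genes tested too, so these counts cannot be compared as shares. TMM and size factors gave 8 and 93 calls, the same genes. Reversed log2 ratios between genotypes were Actc1 at 0.27 (keratin 0.4%) and 0.41 (Cd9 at 0.02%), Acta1 at 0.19 (without deep barcodes), and Dppa5a at -1.91 (keratin 0.4%), -1.96 (without deep barcodes) and -1.93 (without its top 5% of cells). None of the 8 class genes and 6 of 28 genotype genes kept its call in every alternative run. Wnt10a and, between genotypes, Crlf2, Hist3h2ba, Ddit3, Pcbd1, Pkdcc, Rasgrp2 and Tfap2c lost it only at the 50 CPM limit. Their ratios stayed past 2-fold in every alternative run. The cause of the other losses was not tested. No paired analysis was possible because each group is 1 library. Depth limits genes under 20 CPM, and a single library per genotype limits every difference between genotypes.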
